A study of Mus musculus with 2 samples.

Results

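The 41 genes described here make the proteins that license replication origins and run the replication fork: the origin recognition complex, the licensing factors Cdc6, Cdt1 and Gmnn, the MCM2-7 helicase with its activators Cdc45, GINS and Mcm10, the replicative polymerases, and the clamp, clamp loader, RPA and Okazaki fragment enzymes. They were chosen by gene symbol, and all 41 were found among the 43346 genes of the main tables. RNA was measured in CH12.LX, an established mouse B cell lymphoma line of female origin from strain B10.H-2aH-4bp/Wts, whose age the labels give as unknown. The study holds 1 group of 2 total RNA libraries, biological replicates 1 and 2, with no treatment, genotype or time point to contrast. Levels are therefore described, and the only comparison between samples sets replicate 2 against replicate 1, with 1 library a side and no test.

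In late mitosis and G1 the origin recognition complex (ORC) marks origins, and Cdc6 and Cdt1 load the MCM2-7 ring there in an inactive form, a step called licensing. Geminin, the product of Gmnn, binds Cdt1 and prevents a repeat of loading in the same cycle. At the start of S phase Cdc45 and GINS join the ring to form the active helicase, RPA coats the exposed single strand, polymerase alpha-primase lays primers, and polymerases epsilon and delta extend them on the PCNA clamp, which replication factor C (RFC) loads. Many of these genes are known targets of E2F transcription factors, which switch on S phase genes as cells leave G1, and a lymphoma line in culture is a population of cycling cells.

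Because E2F control is the shared feature best known for this group, the promoters were read first. RefSeq promoters on GRCm38.p6, each 250 bases before to 50 bases after an annotated start, were at hand for 33 of the 41 genes. The 8 not read were Mcm4, Gmnn, Gins1, Gins2, Gins4, Prim2, Pole and Rfc2. An E2F match was any of TTTCGCGC, TTTGGCGC, TTTCCCGC or TTTGCCGC on either strand. Such a match lay in the promoters of 15 of the 33 genes (45.5%), beside 2.26% of all 32851 RefSeq promoters and 5.30% of the 7135 detected protein-coding genes with a promoter. The 2.26% counts promoters and not genes, and by promoter 15 of the 41 read for these genes held a match. The 15 genes were Orc1 and Orc3, Cdc6 and Cdt1, Mcm3, Mcm5, Mcm6 and Mcm7, Gins3, Pola1, Pold1, Pold3 and Pole2, Rfc3, and Lig1. No match was found in the promoters read for the other 18, among them Cdc45, Mcm10, Pcna, Fen1 and the RPA genes. RefSeq and GENCODE starts can differ. A window read for Fen1, chr19:10204344-10204643, lies wholly before its GENCODE start at 10204169 on the minus strand. One for Rpa1, chr11:75348334-75348633, lies wholly before its start at 75348324. Bases after the RefSeq start were found in a GENCODE transcript of the gene for 35 of the 41 member promoters. The sequences before the start of 4 of the 33 genes are shown, 3 with E2F matches and Mcm3, whose E2F matches lie after the start. Capitals mark E2F matches and the box CCAAT on either strand, which the factor NF-Y is known to bind. Each run is 170 bases, 5′ to 3′ on the gene's strand.
Mcm5, chr8:75109339-75109508, plus strand: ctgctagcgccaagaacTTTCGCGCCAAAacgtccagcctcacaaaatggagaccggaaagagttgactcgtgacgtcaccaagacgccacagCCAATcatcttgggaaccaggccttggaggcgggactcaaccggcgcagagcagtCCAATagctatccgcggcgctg
Mcm6, chr1:128359706-128359875, minus strand: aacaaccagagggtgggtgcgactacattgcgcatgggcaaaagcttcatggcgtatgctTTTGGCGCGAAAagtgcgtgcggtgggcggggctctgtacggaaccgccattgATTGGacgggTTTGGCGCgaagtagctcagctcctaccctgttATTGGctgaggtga
Pola1, chrX:93632156-93632325, minus strand: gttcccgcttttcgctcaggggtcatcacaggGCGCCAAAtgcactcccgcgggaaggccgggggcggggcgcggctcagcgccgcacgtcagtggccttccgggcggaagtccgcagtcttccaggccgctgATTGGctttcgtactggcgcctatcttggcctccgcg
Mcm3, chr1:20820313-20820482, minus strand: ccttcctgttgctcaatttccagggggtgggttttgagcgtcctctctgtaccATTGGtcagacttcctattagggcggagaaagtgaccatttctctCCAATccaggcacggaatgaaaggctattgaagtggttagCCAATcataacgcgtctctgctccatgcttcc

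In Mcm5 and Mcm6 the longer run of capitals is a pair of E2F matches on opposite strands that overlap. The Mcm5 pair lies at positions -153 to -142, the Mcm6 pair at -110 to -99 with another match at -47 to -40, and the Pola1 match at -138 to -131, with the RefSeq start at 0. Over all member promoters there were 21 E2F matches, 12 of them before the start, and 5 genes held more than 1. Of the 21 matches, 4 overlapped another E2F match and 1 overlapped a CCAAT box. TTTGCCGC was found in 0 of the 33 genes, while TTTCCCGC was found in 8 and the other E2F forms in 6 each.

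The box CCAAT was found in 21 of the 33 genes, beside 37.4% of all promoters and 44.0% of detected genes. Both an E2F match and a CCAAT box were present in 8 genes. The CHR elements TTTGAA and TTCGAA are known from genes of G2 and mitosis. They were found in 7 of 33 (21.2%), near the 19.2% of all promoters and 17.2% of detected genes. The GC box GGGCGG was found in 25 of 33, beside 35.7% of all promoters and 71.0% of detected genes, so its frequency among the members was near that of detected genes. Counted by promoter, as the shares of all promoters are, 23 of the 41 member promoters held CCAAT, 7 a CHR element and 29 a GC box. RNA levels did not separate by the E2F letters: the median over the 15 genes with a match was 15.7 TPM (a length-scaled share of transcripts, so that genes can be compared), beside 20.8 TPM over the 18 without, and the ranges overlapped. A match describes letters in a window and does not show binding.

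**Figure D1:**
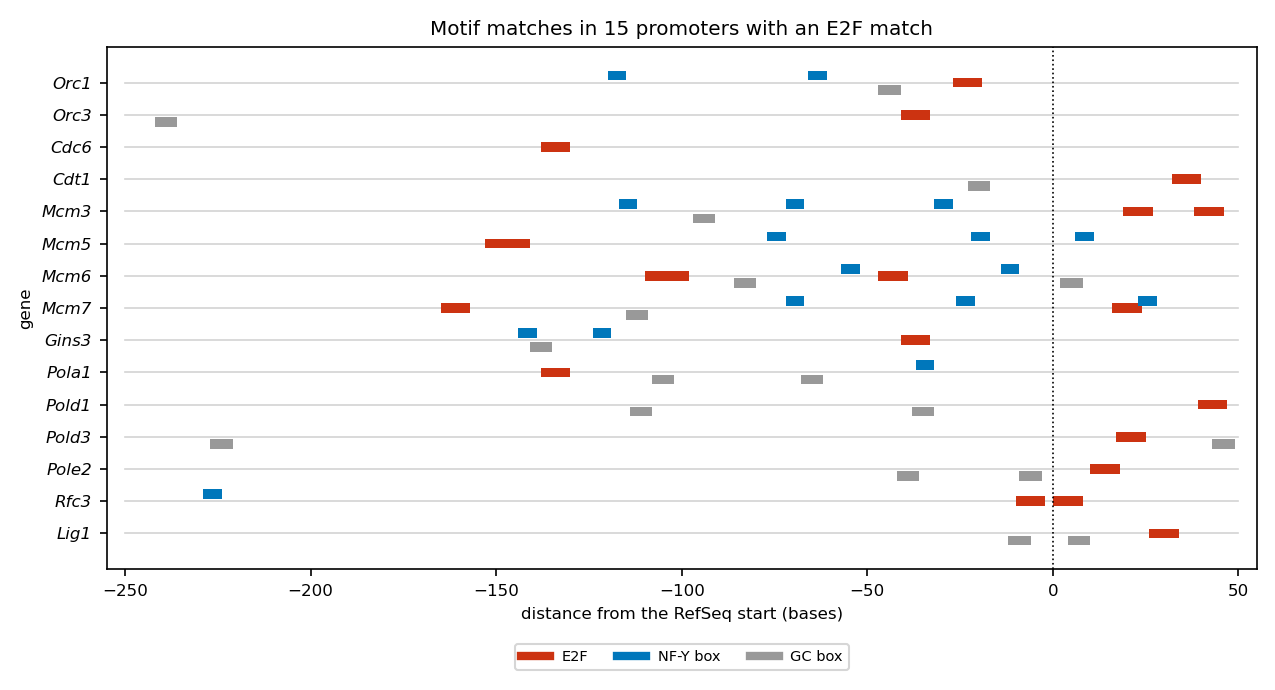
Positions of E2F, NF-Y (CCAAT) and GC box matches on either strand in the RefSeq promoters of the 15 genes with an E2F match, by distance from the start in bases (dotted line at 0); where a gene has several promoters, the one with the match is drawn. Of the 21 E2F matches 12 lie before the start, and those of Mcm3, Cdt1, Pold1, Pold3, Pole2 and Lig1 lie after it.

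All 41 genes were detected, which here means at least 1 TPM in each library, and 34 reached 10 TPM in each. Their median of mean levels was 17.9 TPM, beside 6.67 TPM over the 8895 detected protein-coding genes, and 38 of the 41 were above that median. Together they held 0.493% of the TPM of protein-coding genes in replicate 1 and 0.424% in replicate 2. The library totals were 49278383 and 55950529 expected counts, and every member had between 554 and 20981 expected counts per library. The highest gene, Pcna, stood 38.7-fold above the lowest, Gins3.

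**Figure D2:**
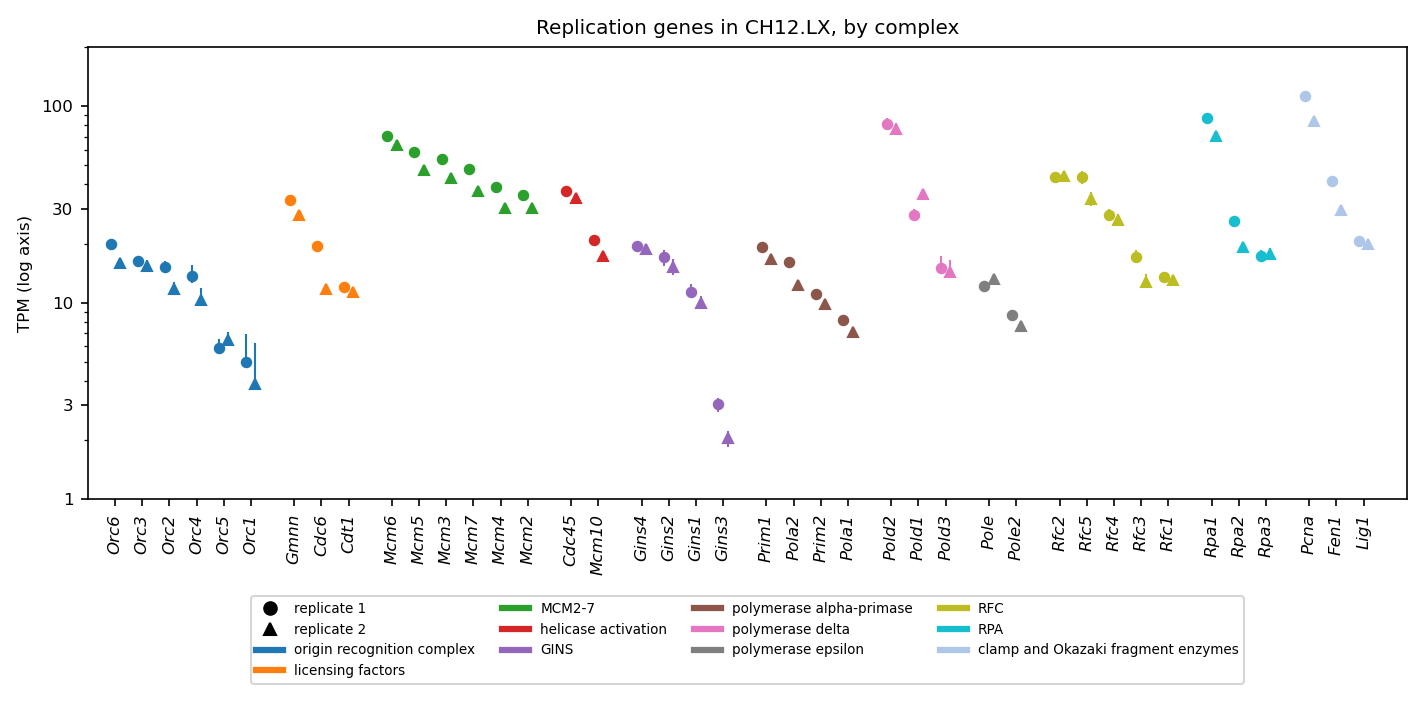
TPM of the 41 genes (log axis), grouped and coloured by complex, with circles for replicate 1, triangles for replicate 2 and lines for the deposited credibility bounds. Pcna at a mean of 98.3 TPM is the highest and Gins3 at 2.54 TPM the lowest, and the MCM2-7 genes all lie between 30.4 and 70.2 TPM.

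The 6 ORC genes had a median of 12.7 TPM. Orc6, which helps load MCM2-7, led at 19.8 TPM in replicate 1 and 15.8 in replicate 2. Orc1, an ATPase of the complex whose protein is known to be removed after G1 in mammalian cells, was lowest at 4.98 and 3.84 TPM. Orc6 therefore stood 4.05 ± 0.10-fold (SD, n = 2) above Orc1, and the order of all 6 was the same in both libraries. Orc3 was at 16.2 and 15.4 TPM, and Orc2 at 15.2 and 11.7. Orc4 was at 13.6 and 10.4 TPM, and Orc5 at 5.90 and 6.47. Orc1 and Orc5 thus formed a low pair, under 7 TPM in both libraries, and the other 4 were all above 10 TPM. When only coding transcripts were summed, Orc4 was at 7.54 and 6.01 TPM and Orc3 at 10.4 and 8.67, so that split did not hold. The Orc4 sum includes Orc4-209, a coding form of 383 bases at 2.83 and 2.54 TPM. That form held 3.32% and 3.64% of the gene's expected counts. The coding form Orc4-201, of 4066 bases, was at 2.84 and 2.51 TPM, below Orc1-201 at 4.20 and 3.26. Orc2 likewise includes Orc2-205, of 370 bases, at 2.59 and 2.82 TPM.

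Of the licensing factors, the inhibitor was the most abundant transcript. Gmnn was at 33.4 TPM in replicate 1 and 27.9 in replicate 2. Cdt1, which its product binds, was at 12.1 and 11.3 TPM. Gmnn was thus 2.62 ± 0.21-fold (SD, n = 2) above Cdt1 at the RNA level. Cdc6, the ATPase that loads the ring with ORC, was at 19.5 TPM in replicate 1 and 11.8 in replicate 2, the largest ratio between libraries of any member.

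The 6 subunits of the MCM2-7 ring, which are present in equal numbers in the assembled helicase, lay close together and high. Mcm6 led at 70.2 and 63.2 TPM, and Mcm2 was lowest at 35.3 and 30.4 TPM, a ratio of 2.03 ± 0.07 (SD, n = 2). Between them came Mcm5 at 58.2 and 47.6 TPM, Mcm3 at 53.6 and 43.1, Mcm7 at 47.9 and 36.9, and Mcm4 at 38.9 and 30.5. The order was the same in both libraries, and the median over the 6 was 45.4 TPM, against 12.7 for ORC. Every MCM2-7 gene was above every ORC gene in both libraries. Mcm7 is the host gene of Mir25, Mir93 and Mir106b, which are annotated within it and were listed at 0 TPM in both libraries, although mature miRNAs are too short for such tables to measure.

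Among the helicase activators, Cdc45 was at 37.1 and 34.2 TPM and Mcm10, which acts in starting the fork, at 20.7 and 17.2. GINS is the ring-shaped partner of Cdc45 made of 4 subunits. Its spread was the widest of any complex over the listed members, which leave out Pold4 of polymerase delta. Gins4 was at 19.5 and 18.8 TPM and Gins3 at 3.04 and 2.04, a ratio of 7.82 ± 2.01 (SD, n = 2; 6.40 in replicate 1 and 9.24 in replicate 2). Gins2 was at 17.0 and 15.2 TPM and Gins1 at 11.4 and 9.91. Gins3 rested on 757 and 554 expected counts and its credibility bounds, 2.82 to 3.25 TPM and 1.87 to 2.21 TPM, were far below those of the other subunits. The subunits of this complex are known to assemble in equal numbers, and their RNA levels were unequal.

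The polymerases differed in how evenly their subunits were expressed. In polymerase alpha-primase, the primase subunit Prim1 led at 19.2 and 16.7 TPM and the catalytic subunit Pola1 was lowest at 8.16 and 7.06, a ratio of 2.36 ± 0.0077 (SD, n = 2). Pola2 was at 16.2 and 12.3 TPM, and Prim2 at 11.1 and 9.86. Polymerase epsilon extends the leading strand. Its catalytic Pole was at 12.1 and 13.2 TPM and its partner Pole2 at 8.68 and 7.60, a ratio of 1.57 ± 0.24. Its subunits Pole3, at 10.55 and 7.67 TPM, and Pole4, at 14.56 and 12.96, are outside the member list and that ratio.

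Polymerase delta, which extends the lagging strand, was uneven. Its accessory subunit Pold2 was at 81.5 and 76.4 TPM, among the highest members, while Pold3, the subunit that carries a PCNA contact, was at 15 and 14.4. The ratio of Pold2 to Pold3 was 5.37 ± 0.09 (SD, n = 2). Pold4, a further subunit outside the member list, was lower still at 7.25 and 11.3 TPM. The spread over all subunits is therefore wider than that ratio. The catalytic subunit Pold1 was at 27.9 TPM in replicate 1 and 35.8 in replicate 2. The catalytic subunits of the polymerases thus ranked Pold1, then Pole, then Pola1 in both libraries.

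At the fork, the sliding clamp Pcna (chr2:132249162-132253314 in GENCODE on mm10) was the highest member at 112 TPM in replicate 1 and 84.5 in replicate 2. Its processed pseudogene Pcna-ps2 was listed at 1.42 and 1.3 TPM, with 172 and 171 expected counts, and Pcna-ps1 at 0. Pcna counts were among the few that were not whole numbers, so some of its reads were shared with other sequences. Fen1, the nuclease that trims the flap of Okazaki fragments, was at 41.4 and 29.7 TPM, and Lig1, the ligase that seals them, at 20.5 and 20.

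Of the clamp loader genes, Rfc2 led at 43.6 and 44.2 TPM and the large subunit Rfc1 was lowest on average at 13.5 and 13.1. Rfc2 over Rfc1 was 3.29 ± 0.11 (SD, n = 2). Rfc5 was at 43.5 and 33.7 TPM, Rfc4 at 27.9 and 26.4, and Rfc3 at 17.1 and 12.8. In replicate 1 the bounds of Rfc2 and Rfc5 overlapped, and by posterior mean TPM Rfc5 was the higher there, at 43.51 against 43.40. Rfc3 was above Rfc1 in replicate 1 and below it in replicate 2, where their bounds overlapped, and RFC was the only group whose order differed between the libraries.

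RPA, the single-strand binding trimer, was led by its large subunit. Rpa1 was at 86.8 and 70.1 TPM, Rpa2 at 26.1 and 19.2, and Rpa3 at 17.4 and 17.7. Rpa1 over Rpa3 was 4.48 ± 0.73 (SD, n = 2), and 2.60 when only transcripts of protein-coding type were summed, an alternative chosen after the values were seen.

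The transcript table showed where a gene's TPM includes RNA that does not encode the protein. Only 1 transcript was listed for 8 members, and the leading transcript was annotated as protein-coding in 38 of the 41. It held at least 80% of the gene's TPM in 24 members and at least 80% of its expected counts in 32. Forms annotated as protein-coding include short ones. Orc4 was led by Orc4-209, of 383 bases, by TPM and by Orc4-201, of 4066 bases, by expected counts. Transcripts of a non-coding type, such as those with a retained intron, held at least 20% of the TPM in 9 members, but at least 20% of the expected counts in 5. The measures differ because TPM divides by length, so a few reads on a short transcript weigh more.

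Gins2 was the extreme case. Its transcript Gins2-204, a retained intron form of 511 bases, took 67.9% of the gene's TPM in replicate 1 and 74.1% in replicate 2. By expected counts the full coding form Gins2-201, of 3900 bases, held 68.6% and 70.6% instead. The coding form was at 3.70 and 3.37 TPM, so by this measure Gins2 lies beside Gins3 at the bottom of GINS rather than near Gins4.

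Lig1 was the member with most non-coding RNA by counts. Its non-coding types held 74.1% of TPM in replicate 1 and 69.9% in replicate 2, and 67.9% and 62.2% of expected counts. The leading form Lig1-209, a processed transcript of 3054 bases, was at 6.23 and 5.66 TPM, and the coding Lig1-201, of 3091 bases, at 5.15 and 5.27. These forms are nearly equal in length, unlike those of Gins2. Short reads divide such overlapping forms only indirectly.

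In Rpa1, a retained intron form of 716 bases, Rpa1-205, held 40.6% of TPM in replicate 1 and 43.8% in replicate 2, but 11.9% and 13.2% of expected counts. Non-coding types also held at least 20% of expected counts in Orc4, at 30.5% and 26.6%, and in Orc3, at 21.8% and 30.7%. The same was true of Mcm10, at 23.7% in each library. In Mcm10, Mcm10-204 with a retained intron held 34.7% and 35.4% of TPM. In Pold1, the coding Pold1-201 was at 12.7 TPM in replicate 1 and 17.5 in replicate 2, and retained intron forms held much of the rest. Pold2-202, a processed transcript of 342 bases, held 20.8% and 23.0% of Pold2 TPM. The leading Rfc1 transcript had no match in GENCODE M21, so its type is not given. Alternative coding forms were also seen: Cdc45-202 held 60.1% and 59.7% of Cdc45 TPM and Cdc45-201 nearly all the rest, and Cdc6-202 held 70.5% and 67.4% of Cdc6 TPM.

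**Figure D3:**
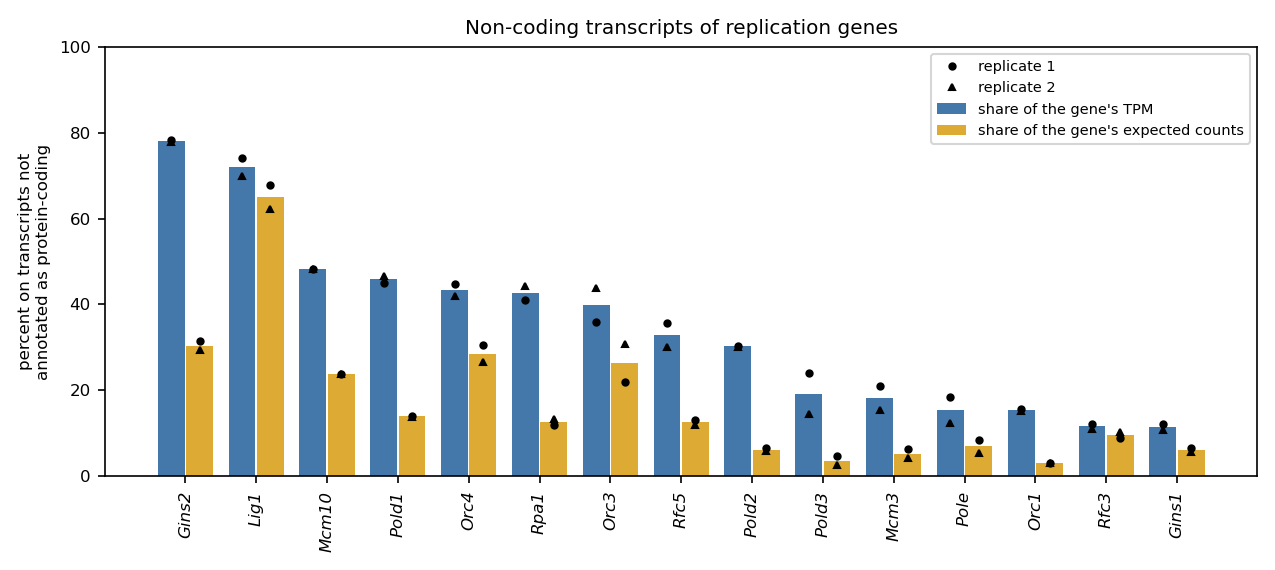
Percent of a gene's TPM (blue) and of its expected counts (yellow) on transcripts not annotated as protein-coding, for members with at least 10% of TPM on such transcripts; bars are means over 2 libraries and points the libraries. Gins2 falls from 78.0% by TPM to 30.4% by counts, while Lig1 stays at 72.0% and 65.1%.

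Set against replicate 1, replicate 2 had less RNA of most members. The log2 ratio of TPM plus 0.1, replicate 2 over replicate 1, was below 0 for 36 of the 41 genes, beside 56.7% of the 9087 protein-coding genes that averaged 1 TPM or more. Its median was -0.21 over the members and -0.05 over those genes. The share of genes lower in replicate 2 was greater among highly expressed genes: of the 3300 protein-coding genes that averaged 10 TPM or more, 67.4% were lower, with a median of -0.11, beside 32 of the 36 members at that level. In bulk RNA, fewer cells with a transcript and less of it per cell cannot be told apart, and the libraries have no replicate of their own, so no difference between conditions is at issue.

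Only Cdc6 was lower by at least 1.5-fold, beside 1.87% of protein-coding genes. Its 19.5 TPM in replicate 1 and 11.8 in replicate 2 give a log2 ratio of -0.72, and its credibility bounds, 18.9 to 20.04 and 11.3 to 12.2 TPM, lie far apart. The next lowest ratios were -0.55 for Gins3 and -0.48 for Fen1. The deposited bounds were wholly lower in replicate 2 for 26 members, beside 30.6% of protein-coding genes, wholly higher for 1, beside 18.6%, and overlapped for 14. At a mean of 10 TPM or more they were wholly lower for 23 of 36 members, beside 48.6%, and wholly higher for 1, beside 19.2%. These bounds cover the estimation of a level within 1 library and not the spread between cultures.

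All 6 MCM2-7 genes were lower with bounds apart, from -0.15 for Mcm6 to -0.37 for Mcm7. The 4 genes of polymerase alpha-primase were also all lower with bounds apart, from -0.17 for Prim2 to -0.39 for Pola2. Bounds were wholly lower for 48.6% of protein-coding genes averaging 10 TPM or more and for 30.6% of those averaging 1 TPM or more. In ORC, Orc4 was at -0.39 and Orc5 at 0.13. In RPA, Rpa2 was at -0.44 and Rpa3 at 0.03, and in RFC, Rfc3 was at -0.41 and Rfc2 at 0.02. Lig1 was at -0.04, and at 0.17 with coding transcripts only, while Pcna was at -0.41.

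The 5 genes higher in replicate 2 were Orc5, Pold1, Pole, Rfc2 and Rpa3. Pold1 was the only member whose bounds were wholly higher, 26.8 to 29.6 TPM in replicate 1 and 34.5 to 37.5 in replicate 2, with a log2 ratio of 0.36. Pole, the catalytic subunit of the other elongating polymerase, was at 0.12 with overlapping bounds. Rfc2 and Rpa3 were below 0 when FPKM or counts scaled by total counts were used.

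**Figure D4:**
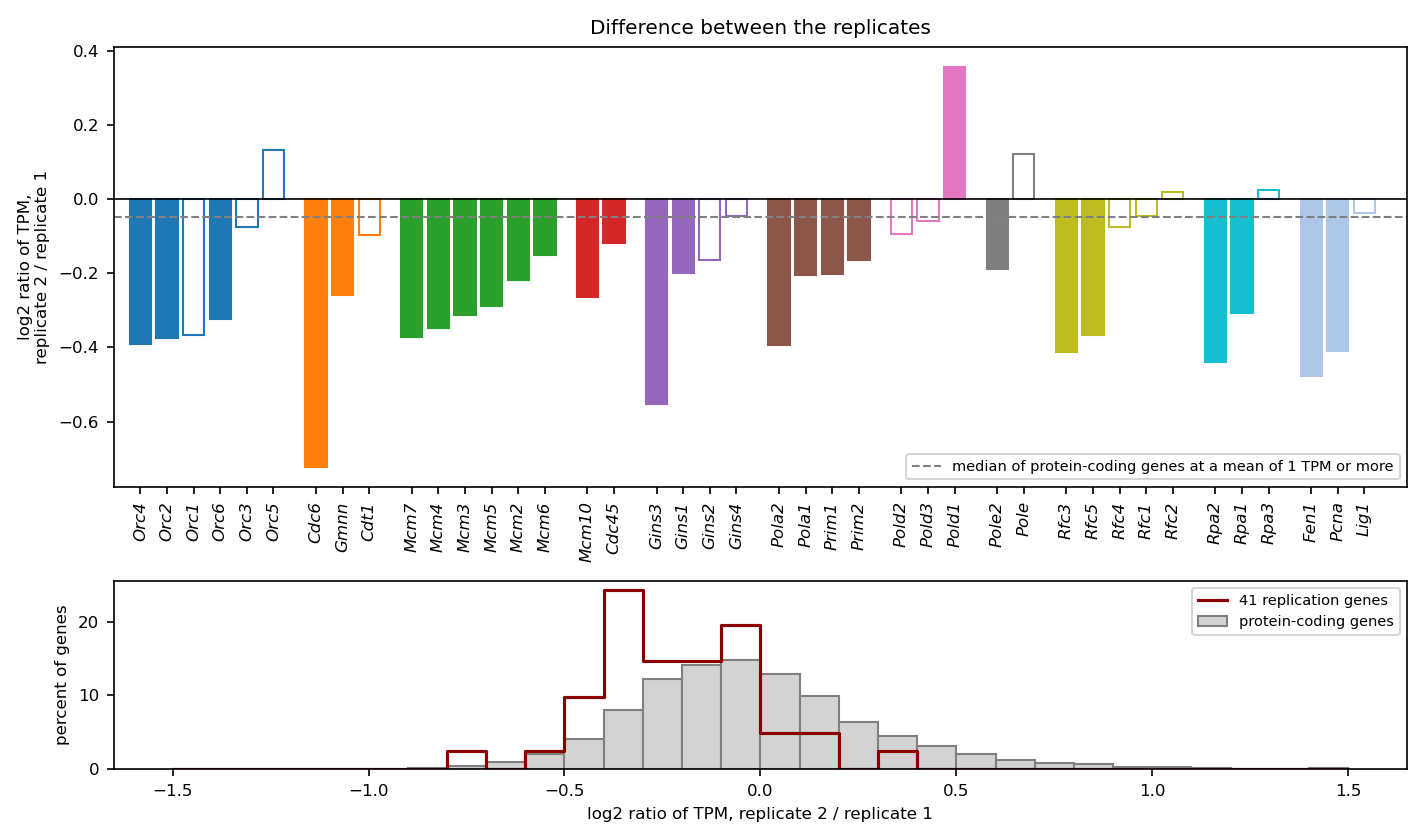
Above, the log2 ratio of TPM plus 0.1, replicate 2 over replicate 1, for each gene by complex, with filled bars where the credibility bounds do not overlap and the median of protein-coding genes dashed; below, the distribution over the 41 genes (line) and over 9087 protein-coding genes (grey) in bins of log2 ratio, of which 22 lie beyond the axis. Bars below 0 number 36 of 41, Cdc6 is lowest at -0.72 and Pold1 highest at 0.36.

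All 36 genes of a list of further replication factors were detected, with a median of 11.5 TPM, beside 17.9 TPM for the members. In replicate 2, 30 were lower and 6 higher, beside the 56.7% of protein-coding genes that were lower, and their median log2 ratio was -0.21. Bounds were wholly lower for 24 and wholly higher for 1, beside 30.6% and 18.6%. The most abundant were Top2a, the topoisomerase that untangles sister chromatids, at 101 and 96.4 TPM, and Uhrf1, which helps copy DNA methylation, at 60.02 and 52.46. Rnaseh2c, a subunit of ribonuclease H2, was at 40.2 and 30.3 TPM, and Tipin, of the fork protection complex, at 33.7 and 25.5.

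The least abundant were Mcm9 at 1.36 and 1.55 TPM, Ticrr, which acts in origin firing, at 2.01 and 1.96, Recql4 at 3.20 and 2.92, and Dscc1, of an alternative clamp loader, at 3.63 and 3.25. The largest differences between libraries were in the E-type cyclins, which act at the G1 to S transition with Cdk2. Ccne2 was at 6.36 TPM in replicate 1 and 3.13 in replicate 2, a log2 ratio of -1.0, and Ccne1 at 17.9 and 10.4, or -0.77. Top1 was at 35.7 and 20.9 TPM, also -0.77. At the other end, Pold4, the smallest subunit of polymerase delta, was at 7.25 and 11.3 TPM, a log2 ratio of 0.63, followed by Mcm9 at 0.18 and Mcm8 at 0.15. Pold1 and Pold4 were thus both higher in replicate 2, while Pold2 and Pold3 were slightly lower with overlapping bounds. Pold3 was above 0 with counts scaled by TMM factors, DESeq2 size factors or total counts and with coding transcripts only.

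Genes of G2 and mitosis served as another reference for the cycle. All 20 on that list were detected, with a median of 20.9 TPM. In replicate 2, 18 of these were lower, the list had a median of -0.14 on the log2 scale, and bounds were wholly lower for 14 and wholly higher for 1, Nusap1. Of protein-coding genes averaging 10 TPM or more, which 17 of the 20 reached in each library, 67.4% were lower, and bounds were wholly lower for 48.6% and wholly higher for 19.2%. Cdk1 was at 70.9 and 58.5 TPM and Mki67 at 20.8 and 17.3, while Bub1 was level at 11.2 TPM in each. Top2a is on both lists. Whether the libraries differ in the share of cells in S phase was not tested.

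The labelled cell type was checked against markers. All 8 B cell markers were detected, with Cd79b at 121 and 125 TPM, and their summed level was 2260 TPM in replicate 1 and 2183 in replicate 2. Most of that sum was Ighm, at 1545 and 1452 TPM, followed by Cd74 at 496 and 516. The lowest of the 8 was Pax5, at 6.09 and 6.99 TPM. Of 5 T cell markers, Cd3g and Cd3d were above 1 TPM and Cd3e was at 0. None of 4 myeloid or 4 erythroid markers was detected, with summed levels of 0.33 and 0.32 TPM and of 0.17 and 0.21 TPM. Of 5 stromal and epithelial markers only Pecam1, at 4.64 and 5.35 TPM, was detected.

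The annotation release moved a few members. Across releases M2, M3 and M4, the direction of the difference between libraries was the same for all 41 genes, and the mean level was within 1.1-fold for 38. The exceptions were Orc2 at 11.0, 13.8 and 13.4 TPM, Mcm3 at 43.2, 51.3 and 48.4, and Rfc4 at 30.7, 30.7 and 27.2. For Mcm3 the expected counts in replicate 1 were 14243, 14322 and 14323, and 1, 5 and 5 transcripts were listed. Why its TPM moved was not tested.

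Neighbouring genes share bases with 21 members, and for 12 the neighbour was itself at 1 TPM or more. Rfc4 overlaps Eif4a2, a translation factor gene on the opposite strand at 110 and 84.4 TPM, over 194 bases, and Fen1 overlaps Tmem258 at 86.0 and 82.1 TPM over 156 bases. Other overlaps were longer. Orc2 shares 19046 bases with Nif3l1, on the opposite strand at 9.90 and 8.31 TPM. Fen1 also shares 3253 bases with Gm10143, on the opposite strand at 5.33 and 3.58 TPM. Cdt1 lies within Gm20388, a long gene model on the same strand at 3.83 and 6.14 TPM, and Orc5 overlaps the pseudogene Gm15421 at 3.90 and 3.41 TPM. Gins2 shares 10672 bases with Gm20388 from the opposite strand. Whether the counting used strand is not given in the sources used here, so the levels of these members are uncertain by what reads the neighbours share. Expected counts were whole, within 0.005, in both libraries for 38 of the 41 members. The exceptions were Orc5, Rpa3 and Pcna.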

How the data were processed

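Total RNA-seq of 2 CH12.LX libraries was used. Per the labels and each library's manifest, tables were made on mm10 with annotation releases M2, M3 and M4, of which M4 is the main one here. Which aligner and quantifier made them is not given in the sources used here. Per the file headers, the deposited expected counts are estimates of reads for each gene or transcript. The deposited TPM values, per the file headers, are scaled by length to a total of 1000000. The deposited FPKM values, per the file headers, served in an alternative only. Transcript tables also hold deposited percent values, the share of a gene that each transcript takes. The authors also deposited lower and upper credibility bounds of TPM, whose level the headers do not state.

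Symbols, types and coordinates came from GENCODE M21, which matched 42462 of 43346 genes. Ratios used a pseudocount of 0.1 TPM, and detection 1 TPM in each library. Means and SDs are over 2 libraries. With 1 group no test was made. The ratio and bounds step was tested on simulated data with counting error only and no spread between cultures. The simulated bounds were made from the drawn counts, so the deposited bounds themselves were not tested. Expected counts were rounded for scaling with edgeR 4.0.16 and DESeq2 1.42.0 in R 4.3.3. The rest used pandas 2.3.3 and numpy 2.4.6 under Python 3.11.15, with matplotlib 3.10.9 for figures. Depth was 49278383 and 55950529 expected counts. Nothing beyond the replicate label says how the cultures were kept apart.

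The members and lists were chosen with earlier results of these data known. All members are named. From the other replication list the 4 highest and 4 lowest levels and the 3 lowest and 3 highest ratios are named, and up to 3 genes from the G2 and mitosis list. Neighbours, transcripts and release exceptions were named after their values were seen. Alternatives were the release, posterior mean TPM, FPKM, the pseudocount, the scaling, level minimums, leaving out a library and, added after the values were seen, coding transcripts only. Promoter sequences are from RefSeq, GRCm38.p6, and were found for 33 of 41 members. A comparison of protein sequences was planned and not made here.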

Additional observations from a re-analysis of the deposited data

How the results depend on the processing

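The number of members detected was 41 under every release, unit and scale tried and with either library left out (41 to 41), and 34 at a minimum of 10 TPM. The number of members lower in replicate 2 ranged from 32, at a mean of 10 TPM or more where 36 were left, to 38 with FPKM, and was 33 of 40 with coding transcripts only, where Rfc1 was left out because its leading transcript had no match. The median log2 ratio ranged from -0.18 with TMM factors to -0.26 with total counts, and the median over protein-coding genes moved with it, from -0.03 to -0.11, so the gap between them was -0.15 to -0.16. Pold3 was above 0 with TMM factors (0.11), DESeq2 size factors (0.11), total counts (0.03) and coding transcripts only (0.12), Lig1 with coding transcripts only (0.17), and Rfc2 and Rpa3 were below 0 with FPKM (-0.03 each) and total counts (-0.04 and -0.05). The median level was 39.5 in FPKM, 73.7 TPM when rescaled to protein-coding genes and 15.7 TPM over coding transcripts only, and 17.2 to 19.5 TPM with a library left out. With posterior mean TPM, Orc6 over Orc1 was 3.44, Prim1 over Pola1 2.35 and Pold2 over Pold3 5.15. With M2, Mcm6 over Mcm2 was 1.95 and Pold2 over Pold3 5.64. With M3, Prim1 over Pola1 was 2.35 and Pold2 over Pold3 5.63. With coding transcripts only, Orc6 over Orc1 was 4.79, Mcm6 over Mcm2 1.94, Prim1 over Pola1 2.21, Pold2 over Pold3 4.71 and Rpa1 over Rpa3 2.60. With a library left out, the ratios were 3.98 to 4.12 for Orc6 over Orc1, 1.99 to 2.08 for Mcm6 over Mcm2, 6.40 to 9.24 for Gins4 over Gins3, 3.22 to 3.37 for Rfc2 over Rfc1, 2.35 to 2.36 for Prim1 over Pola1, 5.31 to 5.43 for Pold2 over Pold3, 1.40 to 1.74 for Pole over Pole2 and 3.96 to 4.995 for Rpa1 over Rpa3. The highest and lowest member of each of these complexes was the same under M2, M3, posterior mean TPM and FPKM. With coding transcripts only they were also the same, except for RFC, where this was not run. These coding sums count short coding forms, among them Orc4-209 of 383 bases. With replicate 1 left out, Rfc3 in place of Rfc1 was the lowest of RFC.

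No paired analysis was possible because there is 1 group, and the replicate numbers are the only contrast. Leaving out a library gives no ratio between libraries. Each member had at least 554 expected counts in each library, and 2 libraries give little information on the spread between cultures.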
